A study of Mus musculus with 12 samples.

Results

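The Rab GTPases of IEC4.1 cells were the 55 genes, of 15002 in the tables, whose symbol is Rab followed by a number, with or without a letter. IEC4.1 is a line from newborn mouse intestinal epithelium. All libraries were of the same line and all cells were transfected, either with scrambled siRNA (siR_Ctrl) or with a pool of 3 siRNAs at 40 nM each against the long noncoding RNA Nostrill (siR_Nostrill), and each was left without cytokine or given IFN-γ. Each of the 4 combinations, named siR_Nostrill + IFN-γ and so on, held 3 libraries. Transfection ran for 24 h before IFN-γ was added, by the study's own description at 1 ng/ml for 4 h. The labels give a time of 24 h for every library and do not say what it counts. Poly(A) RNA was sequenced, and 17824306 to 19093204 counts fell on genes per library. Nostrill itself was not analysed here, so its knockdown could not be used to check the labels, and siR_Nostrill is a single siRNA pool in a single line.

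Rab proteins are small GTPases that sit on the membranes of the secretory and endocytic pathways. Guanine nucleotide exchange factors (GEFs) load them with GTP, effectors then read the GTP-bound form to move, tether or fuse vesicles, and GTPase-activating proteins (GAPs) switch them off. Escort proteins and the prenyltransferase give them their lipid anchor, and GDP dissociation inhibitors carry them between membranes. In epithelial cells they sort cargo to the apical or basolateral side, and around ingested or invading microbes they govern how a vacuole matures.

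The line carried the labelled cell type's markers weakly. Of the 9 epithelial markers checked, Krt8, Krt18, Vil1 and Cdx2 stayed at or below 0.28 FPKM (fragments scaled to transcript length and to sequencing depth, a level that can be compared between genes), and Krt19 lay between 0.91 and 2.76 FPKM. Epcam, Cdh1, Cldn4 and Cldn7 were not among the 15002 genes listed, so no level is given for them. The mesenchymal genes Col1a1, Col1a2 and Vim reached at least 175.72, 128.42 and 1535.64 FPKM in every library, and Pdgfra at least 7.84 FPKM. Ptprc, which marks leukocytes, did not exceed 0.01 FPKM, while Cd68 lay between 0.91 and 2.07 FPKM. Pecam1 and Cdh5, which mark endothelium, did not exceed 0.11 FPKM. Rab25, which serves apical recycling, lay between 0 and 0.27 FPKM and Rab17, which serves transcytosis, between 0.13 and 0.37 FPKM. They were not on the marker list and do not stand for all Rab genes of polarised transport. Of those grouped here under exocytosis, polarised transport and cilia, Rab8a, Rab13 and Rab10 averaged 55.5, 33.8 and 32.6 FPKM. Rab27a, Rab27b, Rab3b, Rab3c and Rab37 of that group lay below 1 FPKM. Irf1, a textbook IFN-γ target, averaged 50.9 FPKM in siR_Ctrl and 577.7 in siR_Ctrl + IFN-γ, and 57.3 in siR_Nostrill and 543 in siR_Nostrill + IFN-γ.

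Of the 55 Rab genes, 30 had a mean level of at least 10 FPKM over the 12 libraries and 12 lay below 1 FPKM. Their median was 14.99 FPKM, against 6.71 for all genes. The 3 highest were Rab7, which directs transport to lysosomes, at 174 FPKM, Rab1b, which directs transport from the endoplasmic reticulum to the Golgi, at 169.9 FPKM, and Rab5c, which serves early endosome fusion, at 143 FPKM. The order of Rab7 and Rab1b changed with the group. In siR_Ctrl Rab7 was 185.7 ± 6.61 FPKM and Rab1b 168 ± 16.5 FPKM, and in siR_Nostrill Rab1b was the higher at 180.2 ± 6.94 against 157 ± 6.31 FPKM, without overlap (SD, n = 3). Rab34 (105.6 FPKM) and Rab2a (99.7 FPKM), both of the Golgi, followed, and Rab34 was the higher in siR_Ctrl while Rab2a was the higher in siR_Nostrill. Next came Rab1a at 71.7 FPKM, Rab31 at 67.6, Rab28 at 64.1, Rab24 at 59.3 and Rab14 at 58.1, and in siR_Ctrl neighbours in this order did not differ beyond their spread. These 10 genes made up 57.7% to 60.7% of the summed Rab FPKM of a library.

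**Figure D1:**
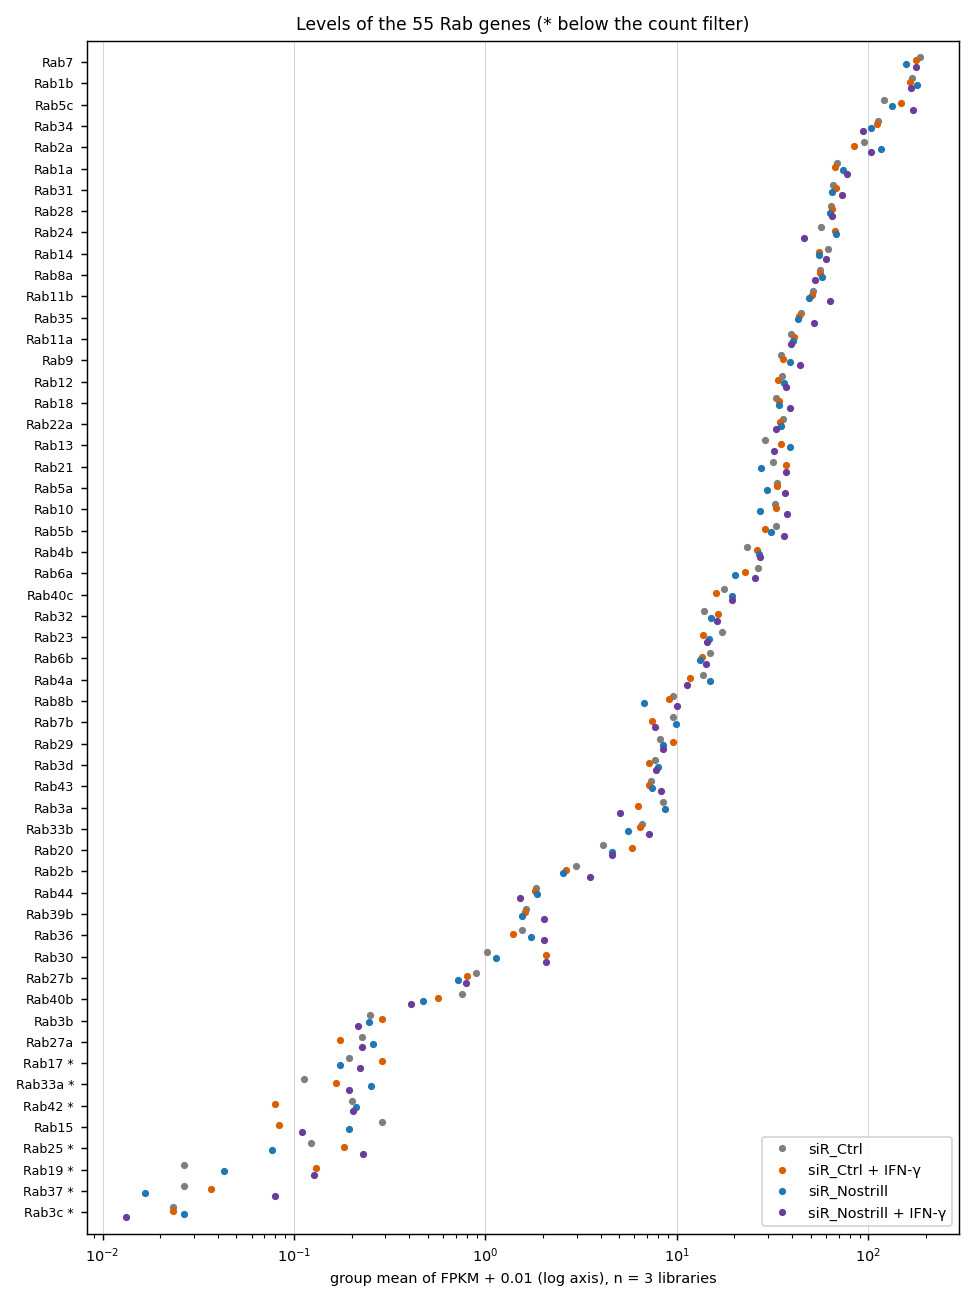
Mean FPKM of each of the 55 Rab genes (plus 0.01, log axis) in the 4 groups, n = 3 libraries each, ordered by the mean over all 12 libraries. The points of a gene lie close together for most members, which run from 174 FPKM for Rab7 to below 0.1 FPKM for Rab3c, and the asterisks mark the 7 genes below the count filter.

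Enough counts for a test were present for 48 of the 55. The other 7 (Rab17, Rab33a, Rab42, Rab25, Rab19, Rab37 and Rab3c) had means of at most 6.26 counts and 0.209 FPKM, and a change in them was not detectable at this depth. Among closely related genes 1 member usually led. Rab5c held 60.2% to 74.0% of the summed level of Rab5a, Rab5b and Rab5c, Rab1b 66.8% to 73.6% of the Rab1 pair, Rab8a 80.5% to 91.1% of the Rab8 pair and Rab2a 96.1% to 98.1% of the Rab2 pair. The same gene led in all 12 libraries in these groups, and likewise Rab4b over Rab4a, Rab6a over Rab6b, Rab11b over Rab11a, Rab33b over Rab33a and Rab27b over Rab27a. Rab11b over Rab11a was the closest, at 51.5% to 64.5% of the pair. Rab3d and Rab3a, of regulated secretion, changed places: Rab3d was the highest of the 4 Rab3 genes in 7 of the 12 libraries. Rab32 is a partner of Rab38 in melanosome and lysosome-related traffic, and had a mean of 15.4 FPKM, while Rab38 was not among the genes listed. By compartment, Rab genes of the Golgi and its supply route made up 29.7% to 33.5% of the Rab FPKM of a library, those of early endosomes 18.1% to 22.5%, those of late endosomes, lysosomes and autophagy 18.6% to 20.8%, those of recycling endosomes 13.4% to 14.5% and those of exocytosis, polarised transport and cilia 12.5% to 13.7%.

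The family's summed share of counts moved little. It was 0.334% to 0.348% of all counts in siR_Ctrl, 0.322% to 0.350% in siR_Ctrl + IFN-γ, 0.333% to 0.346% in siR_Nostrill and 0.357% to 0.370% in siR_Nostrill + IFN-γ. In this share the last group lay above all 9 other libraries. The group did not stand apart in summed TPM (a level scaled to a fixed total per library). There siR_Ctrl replicate 1 was highest at 2937, and the siR_Nostrill + IFN-γ libraries were at 2789, 2679 and 2507. Nor did it in summed FPKM, where siR_Ctrl + IFN-γ replicate 1 was at 1750.77 and siR_Nostrill + IFN-γ replicate 3 at 1750.76. Libraries also differed in ways the groups did not explain: the summed FPKM of all genes ran from 570935 in siR_Ctrl replicate 1 to 794809 in siR_Ctrl + IFN-γ replicate 2.

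Rab5c and Rab30 rose with IFN-γ under either siRNA. In siR_Ctrl cells 3 of the 48 Rab genes passed an adjusted p of 0.05 (edgeR, quasi-likelihood, with p-values adjusted by Benjamini-Hochberg across the 11900 genes tested), with Rab30 and Rab5c higher and Rab15 lower. This is 6.25%, close to the 5.45% of all genes that passed. In siR_Nostrill cells 5 passed, with Rab30, Rab5c and Rab21 higher and Rab3a and Rab7b lower. This is 10.4%, where 6.78% of all genes passed, and with 5 genes the counts say nothing particular about the family. At an unadjusted p below 0.05 the counts were 9 of 48 in siR_Ctrl cells, where 14.6% of all genes lay, and 17 of 48 in siR_Nostrill cells, where 21.9% lay. The median log2 fold change of the 48 genes was 0.03 in siR_Ctrl cells and 0.01 in siR_Nostrill cells, beside medians of -0.01 and 0.00 over all genes tested. Groups without overlap, as named below, were common over all genes tested. IFN-γ gave no overlap for 18.3% of all genes in siR_Ctrl cells and 34.9% in siR_Nostrill cells. The siR_Nostrill comparisons gave it for 17.1% without IFN-γ and 22.9% with it. In bulk RNA, a change per cell and a change in which cells contribute cannot be told apart. Library labels do not say whether replicates came from separate cultures, although the methods call them biological triplicates.

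Rab5c (chr11:100715003-100738215, GRCm38.p6), the most abundant Rab5, stood at 117.7, 114.9 and 128 FPKM in the siR_Ctrl libraries and at 153.8, 139.8 and 149 FPKM in siR_Ctrl + IFN-γ. It stood at 133, 136.8 and 131 FPKM in siR_Nostrill and at 179, 168 and 168 FPKM in siR_Nostrill + IFN-γ. Treated and untreated libraries did not overlap under either siRNA. The log2 fold change was 0.36 ± 0.08 (SE) in siR_Ctrl cells (adjusted p = 0.0132) and 0.34 ± 0.08 in siR_Nostrill cells (adjusted p = 0.0184). Its relatives did not pass: Rab5a changed by 0.29 ± 0.09 in siR_Nostrill cells with an adjusted p of 0.0932, and Rab5b had an unadjusted p above 0.05 under either siRNA.

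The 300 bases around its start, from 250 before to 50 after, are shown because this is the most abundant gene that rose. They are set beside 1 of the 2 annotated windows of Irf1, a direct target of IFN-γ signalling. Both are read from RefSeq on GRCm38.p6, 5′ to 3′ on the gene's strand, with matches to the interferon-γ-activated sequence GAS (TTCNNNGAA, a palindrome) or to ISRE (GAAA, any 2 bases and GAAA again, either strand) in capitals. The Rab5c window is chr11:100738166-100738465 on the minus strand, and the Irf1 window shown is chr11:53769764-53770063 on the plus strand.
Rab5c: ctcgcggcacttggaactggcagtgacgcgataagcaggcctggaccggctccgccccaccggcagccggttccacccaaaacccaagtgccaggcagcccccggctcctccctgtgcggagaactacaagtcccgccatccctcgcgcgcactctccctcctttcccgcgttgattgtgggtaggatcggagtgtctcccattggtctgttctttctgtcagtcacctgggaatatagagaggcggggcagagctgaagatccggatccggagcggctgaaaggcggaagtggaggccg
Irf1: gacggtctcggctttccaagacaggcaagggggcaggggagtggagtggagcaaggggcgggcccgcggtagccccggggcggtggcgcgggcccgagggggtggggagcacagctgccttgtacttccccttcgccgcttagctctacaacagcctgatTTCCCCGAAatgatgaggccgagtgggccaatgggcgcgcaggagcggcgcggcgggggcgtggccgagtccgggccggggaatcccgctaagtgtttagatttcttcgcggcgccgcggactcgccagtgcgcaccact
The Irf1 window shown, chosen because it holds a match, has a GAS match that starts 90 bases before the transcript start. The other Irf1 window (chr11:53770223-53770522) and the Rab5c window hold neither motif. Promoter windows matched 46 of the 55 Rab genes, of which 5 (10.9%) held GAS and 1 (2.17%) held ISRE, while 9.55% and 3.99% of all genes with a window held them. Of the 40 tested Rab genes with a window, 3 (7.5%) held GAS and 0 held ISRE, while 8.29% and 3.84% of all tested genes with a window did. The 5 Rab genes with GAS were Rab25, Rab19, Rab11a, Rab34 and Rab15, and the gene with ISRE was Rab19. The windows of Rab21, Rab3a, Rab20 and Rab24 held neither set of letters. A match is a description of these letters and not a bound site.

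Rab30 (chr7:92741637-92844535), a Golgi Rab that also coats autophagosomes around bacteria, showed the largest increase of those that rose. It stood at 1.06, 1.01 and 0.97 FPKM in siR_Ctrl and at 2.17, 2.02 and 1.99 FPKM in siR_Ctrl + IFN-γ. In siR_Nostrill it stood at 1.31, 0.97 and 1.10 FPKM, and in siR_Nostrill + IFN-γ at 2.25, 2.06 and 1.89 FPKM. The groups with and without IFN-γ were well apart, although the gene remained among the lower members. The log2 fold change was 0.87 ± 0.17 (SE) in siR_Ctrl cells (adjusted p = 0.00793) and 0.80 ± 0.17 in siR_Nostrill cells (adjusted p = 0.0130).

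Rab21 (chr10:115289862-115317419), which serves endosomal traffic of integrins, stood at 27.2, 25.4 and 29.8 FPKM in siR_Nostrill and at 37.3, 35.7 and 37.9 FPKM in siR_Nostrill + IFN-γ. These groups did not overlap, and the log2 fold change was 0.41 ± 0.07 (SE, adjusted p = 0.00547). In siR_Ctrl cells its levels were 33.3, 29.9 and 32.4 FPKM without and 38.7, 32.1 and 40.1 FPKM with IFN-γ. There the groups overlapped and the log2 fold change of 0.28 ± 0.07 missed the threshold (adjusted p = 0.0612). The difference between the responses was 0.13 ± 0.11 (adjusted p = 0.482).

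Rab20, which acts in phagosome and early endosome maturation, stood at 3.77, 4.38 and 4.13 FPKM in siR_Ctrl and at 5.08, 6.69 and 5.64 FPKM in siR_Ctrl + IFN-γ, without overlap. Its log2 fold change of 0.58 ± 0.16 (SE) had an adjusted p of 0.0633, and it passed in 6 of 22 alternatives, among them without siR_Ctrl + IFN-γ replicate 1 (adjusted p = 0.0457). In siR_Nostrill cells it stood at 4.57 ± 0.261 FPKM without and 4.57 ± 0.120 FPKM with IFN-γ (SD, n = 3). By compartment, the calls in siR_Ctrl cells, where 5.45% of all genes passed, were 1 of 7 early endosome genes (Rab5c), 1 of 13 Golgi genes (Rab30) and 1 of 7 recycling endosome genes (Rab15). In siR_Nostrill cells, where 6.78% of all genes passed, they were 2 of 7 early endosome genes (Rab5c and Rab21), 1 of 13 Golgi genes (Rab30), 1 of 11 exocytic genes (Rab3a) and 1 of 7 late endosome genes (Rab7b). With at most 2 calls a compartment, these counts are a listing and set no compartment apart.

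Rab3a (chr8:70754703-70758608), which tethers secretory vesicles before regulated exocytosis, was lower with IFN-γ. It stood at 8.24, 8.81 and 8.97 FPKM in siR_Nostrill and at 4.71, 4.82 and 5.61 FPKM in siR_Nostrill + IFN-γ, without overlap. The log2 fold change was -0.80 ± 0.13 (SE, adjusted p = 0.00209), the largest drop among the members that passed in siR_Nostrill cells. In siR_Ctrl cells it stood at 7.54, 8.85 and 8.96 FPKM without and 6.84, 5.88 and 6.09 FPKM with IFN-γ, again without overlap, and its log2 fold change of -0.37 ± 0.13 had an adjusted p of 0.160. The tables list Rab3a on an alternate scaffold, as they do Rab11b and Rab44, and how reads were divided between such copies was not tested.

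Rab7b (chr1:131688681-131715443), which carries cargo from endosomes back to the Golgi, was also lower. It stood at 9.94, 9.71 and 10.1 FPKM in siR_Nostrill and at 8.27, 7.81 and 7.10 FPKM in siR_Nostrill + IFN-γ (log2 fold change -0.38 ± 0.08 SE, adjusted p = 0.0131). In siR_Ctrl cells it stood at 10.4, 9.26 and 9.04 FPKM without and 7.98, 6.80 and 7.48 FPKM with IFN-γ (log2 fold change -0.30 ± 0.08 SE, adjusted p = 0.0568). Libraries with and without IFN-γ did not overlap under either siRNA. Rab7, the abundant lysosomal relative, had a log2 fold change of 0.15 ± 0.06 in siR_Nostrill cells with an adjusted p of 0.198.

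Rab15, a recycling endosome Rab, passed in siR_Ctrl cells on very few counts: 18, 15 and 8 counts in siR_Ctrl and 6, 3 and 2 counts in siR_Ctrl + IFN-γ. Its log2 fold change of -1.85 ± 0.48 (SE) had an adjusted p of 0.0480. In siR_Nostrill cells the counts were 5, 8 and 14 without and 6, 4 and 5 with IFN-γ, which overlap. Rab15 met the count filter through libraries without IFN-γ, where its highest counts lay (18, 15 and 14). The filter thus depended on the groups where the gene was high, and no conclusion is drawn from this call. The call was kept in 7 of the 18 alternatives that could be run on this gene, and in 4 of the 12 in which a library was left out. It was lost with no filter on low counts, and without siR_Ctrl replicate 1 (adjusted p = 0.163) or siR_Ctrl + IFN-γ replicate 2 (adjusted p = 0.160), among others.

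**Figure D2:**
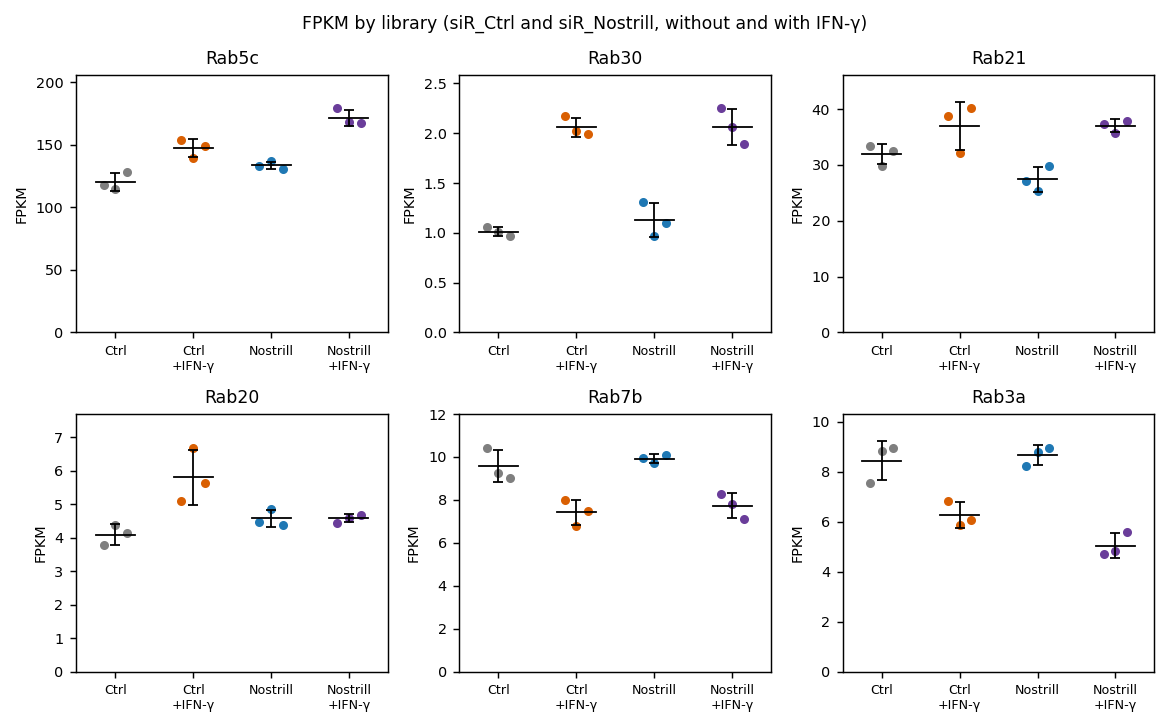
FPKM in each library of Rab5c, Rab30, Rab21, Rab20, Rab7b and Rab3a (points), with the mean and SD of each group of 3 libraries (lines and bars). Rab5c and Rab30 lie higher in both IFN-γ groups than in their untreated groups, Rab7b and Rab3a lie lower in both, and Rab20 lies above its untreated group in siR_Ctrl + IFN-γ and level with it in siR_Nostrill + IFN-γ.

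Further members had an unadjusted p below 0.05 and did not pass the adjustment. In siR_Ctrl cells these included Rab32, of lysosome-related organelles, with a log2 fold change of 0.31 ± 0.09 (adjusted p = 0.104, and 0.0488 without siR_Ctrl + IFN-γ replicate 3), and Rab23, of ciliary Hedgehog signalling, with -0.27 ± 0.10 (adjusted p = 0.227). In siR_Nostrill cells they were mostly higher, with Rab35, of fast recycling, at 0.26 ± 0.08 (adjusted p = 0.0656), Rab8b at 0.54 ± 0.16 (adjusted p = 0.0670) and Rab10 at 0.44 ± 0.14 (adjusted p = 0.0830), the last pair of exocytic transport. Together with those that passed, 13 Rab genes were higher and 4 lower at an unadjusted p below 0.05. Over all genes 1394 were higher and 1212 lower, and fold changes ran with transcript length (Spearman's rho 0.48). With a trend over length removed (below), 15 of the 48 Rab genes passed, 12 of them higher, where 19% of all genes passed. The direction of all genes that passed there was not counted. Without siR_Ctrl replicate 1, Rab8b and Rab10 passed (adjusted p = 0.0201 and 0.0438), and Rab10 also passed without siR_Ctrl + IFN-γ replicate 2 (adjusted p = 0.0302). Rab2b, Rab5a, Rab6a, Rab7, Rab11b, Rab18 and Rab33b were higher and Rab4a and Rab24 lower at this level, with log2 fold changes of 0.15 to 0.44 and of -0.42 and -0.61. Rab2b passed without siR_Nostrill + IFN-γ replicate 3 (adjusted p = 0.0227). The IFN-γ comparisons under either siRNA share no library: 18 of the 48 genes had a positive fold change in both, 11 a negative one in both and 18 opposite signs, while Rab29 was at 0.00 in siR_Nostrill cells.

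**Figure D3:**
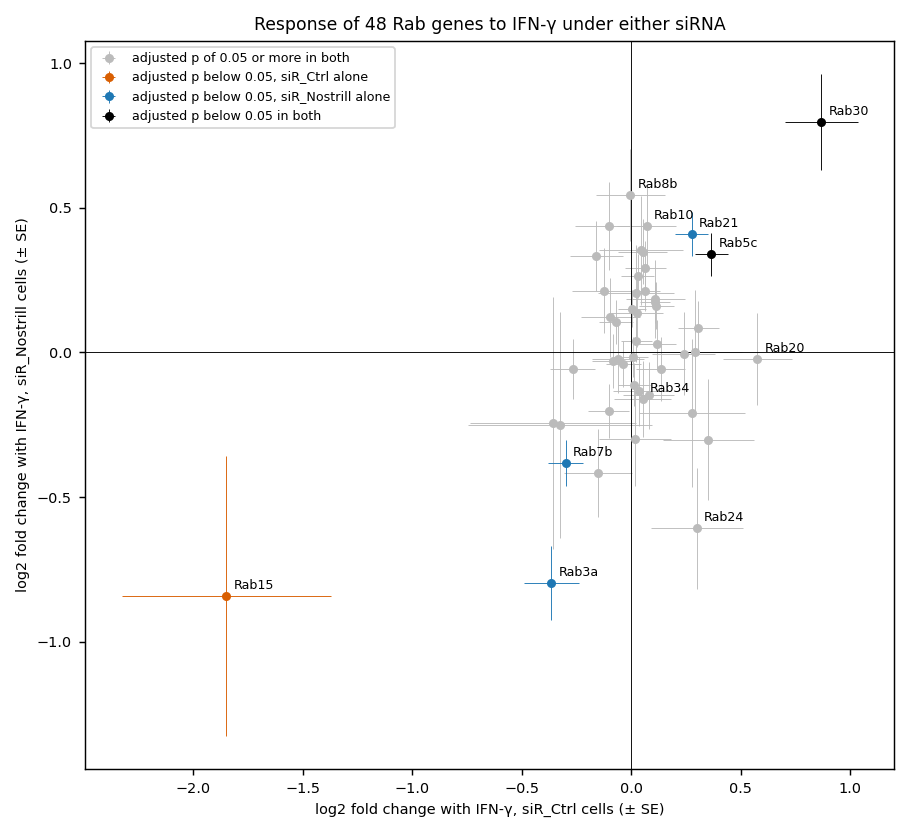
Log2 fold change with IFN-γ in siR_Ctrl cells (x) and in siR_Nostrill cells (y) of the 48 Rab genes tested, with standard errors as bars and colours for an adjusted p below 0.05. Rab30 and Rab5c lie in the upper right and passed in both, Rab3a and Rab7b lie in the lower left, and Rab15 has the widest errors.

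Calls depended on the model for the smaller sets. When the siR_Ctrl groups alone were fitted, 0 of 47 Rab genes passed by edgeR in siR_Ctrl cells, with Rab5c at an adjusted p of 0.148 and Rab30 at 0.0516, where 2.91% of all genes passed. DESeq2 on all libraries called 7 of 54 Rab genes there, where it called 6.33% of all genes. In siR_Nostrill cells DESeq2 called 10 of 51 Rab genes, where it called 10.5% of all genes, and all 5 genes of the edgeR fit were among them. Rab3a and Rab21 in siR_Nostrill cells passed under all 22 alternatives, Rab30 under 19 of 21, Rab5c under 18 of 22 and Rab7b under 17 of 22. In siR_Ctrl cells Rab30 passed under 20 of 21 and Rab5c under 20 of 22, where Rab5c also missed without siR_Ctrl + IFN-γ replicate 1. In siR_Nostrill cells Rab30 missed without siR_Nostrill replicate 2 or siR_Nostrill + IFN-γ replicate 1, Rab5c without siR_Nostrill replicate 3 or any siR_Nostrill + IFN-γ replicate, and Rab7b without siR_Nostrill replicate 2 or siR_Nostrill + IFN-γ replicate 2 or 3. The count there was 8 without siR_Ctrl replicate 1, where 9.47% of all genes passed, and 3 without siR_Nostrill replicate 2 or siR_Nostrill + IFN-γ replicate 1 or 2, where 4.08%, 4.47% and 4.16% of all genes passed.

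Among regulators and effectors of Rab proteins, an effector of Rab7 and an exchange factor rose most with IFN-γ. Of 116 tested from a list of 129, 5 were higher and 1 lower in siR_Ctrl cells (5.17%, where 5.45% of all genes passed), and 4 were higher and 3 lower in siR_Nostrill cells (6.03%, where 6.78% passed), shares close to those of all genes. Their median log2 fold changes were -0.04 and 0.03, beside -0.01 and 0.00 over all genes tested. With a trend over transcript length removed (below), 14 and 21 of the 116 passed, 10 of them higher in each. Of all genes 11.1% and 19% passed there. In siR_Nostrill cells 13 were higher and 8 lower at an unadjusted p below 0.05, and 15 higher and 23 lower with that trend removed. How all genes split at that level with the trend removed was not counted. Plekhm1, an adaptor that Rab7 recruits for fusion with lysosomes, stood at 6.30, 4.84 and 5.84 FPKM in siR_Ctrl and at 12.5, 10.6 and 13.2 FPKM in siR_Ctrl + IFN-γ. It stood at 4.76, 4.20 and 5.37 FPKM in siR_Nostrill and at 12.4, 12.4 and 10.9 FPKM in siR_Nostrill + IFN-γ. Its log2 fold changes of 1.16 ± 0.10 (SE, adjusted p = 1.03e-05) and 1.30 ± 0.10 (adjusted p = 3.89e-06) were larger than that of any Rab gene that rose. St5, an exchange factor for Rab13, rose by 0.93 ± 0.13 and 1.18 ± 0.13, Dennd3, an exchange factor for Rab12, by 0.66 ± 0.12 and 0.54 ± 0.12, and Rab3ip, which activates Rab8, by 0.52 ± 0.09 and 0.37 ± 0.09, in siR_Ctrl and siR_Nostrill cells. In siR_Ctrl cells Dennd6b, an exchange factor, rose by 0.59 ± 0.13, and Sytl2, which binds Rab27, was at -0.71 ± 0.17 (adjusted p = 0.0374). In siR_Nostrill cells Rilpl1, which binds phosphorylated Rab8 and Rab10, was at -0.51 ± 0.10, Sgsm3, a GAP, at -0.33 ± 0.08, and Rabep2, a Rab5 effector, at -0.54 ± 0.14. Plekhm1 and St5 under either siRNA, Dennd3 in siR_Ctrl cells and Rilpl1 passed under all 22 alternatives, while Sytl2 passed under 7 of 21, Rabep2 under 14 of 22 and Rab3ip in siR_Nostrill cells under 16 of 22, and the others under at least 18 of 22.

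Knockdown of Nostrill moved no Rab gene past the adjusted threshold in the main edgeR fit. Without IFN-γ 0 of 48 passed in edgeR's test, where 0.218% of all genes passed, and 7 had an unadjusted p below 0.05, where 13.8% of all genes had. With IFN-γ 0 of 48 passed, where 0.429% of all genes passed, and 8 had an unadjusted p below 0.05, where 14.5% had. DESeq2 called 1 of 44 Rab genes, Rab7, without IFN-γ, where it called 2.56% of all genes. It called 0 of 44 with IFN-γ, where it called 5.46%. With a trend over transcript length removed (below), 3 of 48 passed without IFN-γ and 5 of 48 with it. Of all genes 3.43% and 12.9% passed there. These comparisons use the same siR_Ctrl libraries as the IFN-γ comparison in siR_Ctrl cells and the same siR_Nostrill libraries as the other.

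Without IFN-γ the smallest p belonged to Rab2a, a Golgi Rab (chr4:8535469-8607702). It stood at 88.9, 99.8 and 96.5 FPKM in siR_Ctrl and at 122.7, 117 and 109.9 FPKM in siR_Nostrill, without overlap, a log2 fold change of 0.32 ± 0.09 (SE, adjusted p = 0.223). With IFN-γ it stood at 88.6, 81.1 and 82.7 FPKM in siR_Ctrl + IFN-γ and at 100.8, 101.2 and 107 FPKM in siR_Nostrill + IFN-γ, again without overlap (log2 fold change 0.22 ± 0.09, adjusted p = 0.307). Its count was not a whole number in 10 of the 12 libraries, and what made it so was not tested. Next in order without IFN-γ were Rab7 at -0.21 ± 0.06, Rab6a, of Golgi transport, at -0.37 ± 0.12, Rab8b at -0.47 ± 0.16 and Rab21 at -0.19 ± 0.07, with adjusted p-values of 0.226 to 0.325. Rab5c at 0.18 ± 0.08 and Rab13, of tight junction traffic, at 0.46 ± 0.21 were the other genes with an unadjusted p below 0.05.

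With IFN-γ the smallest p belonged to Rab24 (chr13:55319223-55321980), which acts in the clearance of late autophagosomes. It stood at 64.2, 77.9 and 58.1 FPKM in siR_Ctrl + IFN-γ and at 42.2, 46.4 and 49.4 FPKM in siR_Nostrill + IFN-γ. It stood at 43.7, 63.7 and 63.2 FPKM in siR_Ctrl and at 61.8, 76.0 and 64.9 FPKM in siR_Nostrill. All 3 siR_Nostrill + IFN-γ libraries lay below all siR_Ctrl + IFN-γ and all siR_Nostrill libraries, while siR_Ctrl replicate 1 fell among them. The log2 fold change of siR_Nostrill with IFN-γ was -0.62 ± 0.21 (SE, unadjusted p = 0.0130, adjusted p = 0.193), and that of IFN-γ in siR_Nostrill cells was -0.61 ± 0.21 (adjusted p = 0.119). The first passed in 1 of 22 alternatives, with the length trend removed, and the second in 4 of 22, among them without siR_Ctrl replicate 1 (adjusted p = 0.0416). Without IFN-γ siR_Nostrill stood 0.29 higher on the log2 scale (adjusted p = 0.455), and 0.0933 to 0.4313 higher over the alternatives.

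Rab24 shares its place with another gene. In GENCODE vM21, 62.4% of its exon bases also lie in exons of Prelid1, a mitochondrial lipid transfer protein gene on the opposite strand, and no source used here says whether counting used strand. Prelid1 stood at 599 to 852 FPKM in siR_Ctrl, 710.3 to 982 in siR_Ctrl + IFN-γ, 739 to 934 in siR_Nostrill and 665 to 807 in siR_Nostrill + IFN-γ, 11.4 to 16.3 times the level of Rab24 in the same library. Its log2 fold change of siR_Nostrill with IFN-γ was -0.21 ± 0.21 (SE, adjusted p = 0.690), and its lowest and highest libraries, siR_Ctrl replicate 1 and siR_Ctrl + IFN-γ replicate 2, were also the lowest siR_Ctrl and the highest siR_Ctrl + IFN-γ library for Rab24. The part of Prelid1 reads in the Rab24 values was not tested. Other exon overlaps among the members were smaller, with Rab6a sharing 19.0% of its exon bases with Mrpl48 and Rab43 10.5%, and 4.7% or less for Rab2b, Rab5a and Rab3a. No Rab gene's transcripts shared an exact stretch longer than 70 bases (Rab11b with Rab4b) with another member, shorter than a single read.

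Rab34 (chr11:78188427-78192193), of lysosome positioning, phagosomes and cilia, stood at 112.9, 121.4 and 100.2 FPKM in siR_Ctrl + IFN-γ and at 93.8, 90.6 and 98.2 FPKM in siR_Nostrill + IFN-γ, without overlap. In siR_Ctrl it stood at 99.2, 122 and 118 FPKM and in siR_Nostrill at 101.7, 107.4 and 101.3 FPKM, which overlap. The log2 fold change with IFN-γ was -0.31 ± 0.13 (SE, unadjusted p = 0.0368, adjusted p = 0.30) and without it -0.10 (adjusted p = 0.663). Over the alternatives the first ran from -0.4067 to -0.1868. The second ran from -0.2911 to 0.0026, the last without siR_Ctrl replicate 2. With the length trend removed both passed in edgeR's test (adjusted p = 0.0220 and 0.00934). The promoter window of Rab34 is shown because it holds a GAS match, 200 bases before the start (capitals, chr11:78188177-78188476, plus strand, RefSeq on GRCm38.p6). A second annotated window of the gene holds none.
Rab34: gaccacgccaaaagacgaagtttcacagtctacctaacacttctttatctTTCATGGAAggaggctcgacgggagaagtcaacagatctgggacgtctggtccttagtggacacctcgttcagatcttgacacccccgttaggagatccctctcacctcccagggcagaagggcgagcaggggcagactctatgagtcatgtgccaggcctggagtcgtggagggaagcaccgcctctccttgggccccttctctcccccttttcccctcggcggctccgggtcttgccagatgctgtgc
The remaining genes with an unadjusted p below 0.05 in this comparison were Rab3a at -0.36 ± 0.13 and Rab20 at -0.41 ± 0.16, and Rab35 at 0.21 ± 0.08, Rab36 at 0.46 ± 0.17, Rab2b at 0.36 ± 0.15 and Rab2a. Their adjusted p-values were 0.210 to 0.307.

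**Figure D4:**
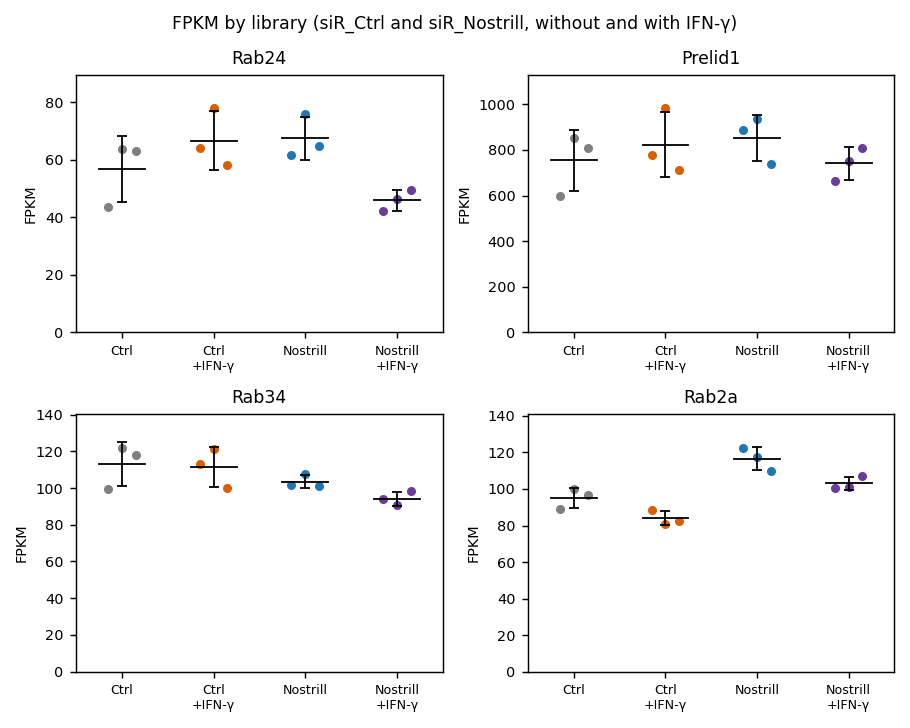
FPKM in each library of Rab24, of Prelid1, whose exons overlap those of Rab24 on the opposite strand, of Rab34 and of Rab2a (points), with the mean and SD of each group of 3 libraries. The siR_Nostrill + IFN-γ libraries are the lowest group for Rab24 and Rab34 and lie above siR_Ctrl + IFN-γ for Rab2a.

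The siRNAs themselves can pair with 3′ untranslated regions through bases 2 to 8 of the guide. The sense strands of the 3 siRNAs follow, 5′ to 3′, with the 7 bases that a guide seed would pair with in capitals, because the knockdown comparisons rest on this pool.
Nostrill-1: ccugggaagaaGCAUUAAu
Nostrill-2: ccaccaggaacACACAAAu
Nostrill-3: gccuauaagucGUUCUAAu
In the longest annotated 3′ untranslated region of each of the 55 Rab genes, sites of Nostrill-1 lay in 9 genes (16.4%, against 8.7% of the 11587 tested genes with such a region), of Nostrill-2 in 15 (27.3%, against 16.1%) and of Nostrill-3 in 6 (10.9%, against 9.8%). These regions had a median length of 1949 bases in Rab genes and 1199 bases in all tested genes. Of the 48 Rab genes tested, 22 held a site of any of them and had a median log2 fold change of -0.03 with siR_Nostrill alone and 0.05 with IFN-γ, against 0.07 and 0.03 in the 26 without. Rab34, Rab35, Rab36, Rab6a and Rab8b held a site of Nostrill-1, Rab7 of Nostrill-2 and Rab21 of Nostrill-3. Rab24, Rab2a, Rab2b, Rab3a, Rab13, Rab20 and Rab5c held none.

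Among the 116 regulators and effectors, 1 gene, Rilpl1, passed edgeR's test under siR_Nostrill in the cells given IFN-γ, where 0.429% of all genes passed. It stood at 18.7, 16.8 and 17.9 FPKM in siR_Ctrl + IFN-γ and at 11.9, 13.6 and 12.9 FPKM in siR_Nostrill + IFN-γ, without overlap, a log2 fold change of -0.52 ± 0.10 (SE, adjusted p = 0.0481). This call was made in 6 of 22 alternatives and was lost, for example, without any 1 of the siR_Ctrl + IFN-γ or siR_Nostrill + IFN-γ libraries, and over all alternatives its adjusted p reached 0.242. Without IFN-γ it stood at 16.9, 16.9 and 19.7 FPKM in siR_Ctrl and at 16.5, 18.4 and 19.7 FPKM in siR_Nostrill, and its interaction of -0.56 ± 0.14 had an adjusted p of 0.430. DESeq2 called 4 of the list with IFN-γ, Rilpl1, Rabep2, Sgsm3 and Tbc1d22a, and 1, Tbc1d15, without, beside its 5.46% and 2.56% of all genes. Without IFN-γ 0 of 116 passed in edgeR's test, where 0.218% of all genes passed, and 16 had an unadjusted p below 0.05, of which 14 were lower, while over all genes 906 were lower and 737 higher. These 16 are 13.8% of the list, as 13.8% of all genes lay below it. The median log2 fold change was -0.14, beside 0.01 over all genes tested. In this comparison fold changes followed transcript length across genes (Spearman's rho -0.654 over 11897 genes), and with the length trend removed the list's median was -0.02, and 11 of 18 genes below an unadjusted p of 0.05 were lower. The smallest p there belonged to Tbc1d15, a GAP for Rab7, at -0.48 ± 0.12 (adjusted p = 0.162). For siR_Nostrill with IFN-γ the length fit moved the list the other way. There 13 of the 116 passed, 3 of them higher, where 12.9% of all genes passed. At an unadjusted p below 0.05 lay 27, of which 22 were lower, in place of 7 with 6 lower. For the interaction 0 passed, and 19 of 24 at that level were lower, in place of 6 of 8. With the length trend removed, the share and direction of all genes at an unadjusted p below 0.05 were not counted in any comparison. The counts of the list in that fit therefore say nothing particular about it.

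The response to IFN-γ did not differ detectably between siR_Ctrl and siR_Nostrill cells for any Rab gene. The interaction (the log2 fold change in siR_Nostrill cells minus that in siR_Ctrl cells) passed for 0 of 48 Rab genes and for 0% of all genes in edgeR's test, and for 0 Rab genes and 0% of all genes by DESeq2. An unadjusted p below 0.05 was reached by 7 Rab genes, where 10.7% of all genes did. The largest difference among these was that of Rab24, whose response was 0.30 in siR_Ctrl and -0.61 in siR_Nostrill cells, an interaction of -0.91 ± 0.30 (SE, unadjusted p = 0.0105, adjusted p = 0.430). Over the alternatives its response in siR_Ctrl cells ran from 0.093 to 0.439 and its interaction from -1.048 to -0.6241. Rab6a (0.49 ± 0.17), Rab2b (0.54 ± 0.22) and Rab8b (0.55 ± 0.22) had positive interactions, and Rab20 (-0.60 ± 0.22), Rab3a (-0.43 ± 0.18) and Rab13 (-0.65 ± 0.29) negative ones, all with an adjusted p of 0.430.

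Fold changes ran with transcript length in these libraries. Over the 48 Rab genes the Spearman correlation of log2 fold change with effective length was -0.339 for IFN-γ in siR_Ctrl cells, 0.290 for IFN-γ in siR_Nostrill cells, -0.412 for siR_Nostrill without IFN-γ, 0.345 for siR_Nostrill with IFN-γ and 0.552 for the interaction, a description over genes that share the same 12 libraries. Over all genes with a length it was -0.422, 0.480, -0.654, 0.262 and 0.648. With that trend taken out of each library, 6 Rab genes passed for IFN-γ in siR_Ctrl cells, where 11.1% of all genes passed, and 15 in siR_Nostrill cells, where 19% passed. Rab5c, Rab30 and Rab3a passed in both. For siR_Nostrill without IFN-γ 3 passed, where 3.43% of all genes passed, with Rab34 at -0.29, Rab7 at -0.30 and Rab2a at 0.23. For siR_Nostrill with IFN-γ 5 passed, where 12.9% of all genes passed, with Rab24 at -0.51 and Rab34 at -0.21, and with Rab9, a late endosome Rab, at 0.33, Rab2a at 0.25 and Rab35 at 0.24. The interaction again gave 0 Rab genes and 0% of all genes, with 7 Rab genes at an unadjusted p below 0.05. The share of all genes at that level was not counted in this fit. The part of length in each result was not tested beyond this fit.

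**Figure D5:**
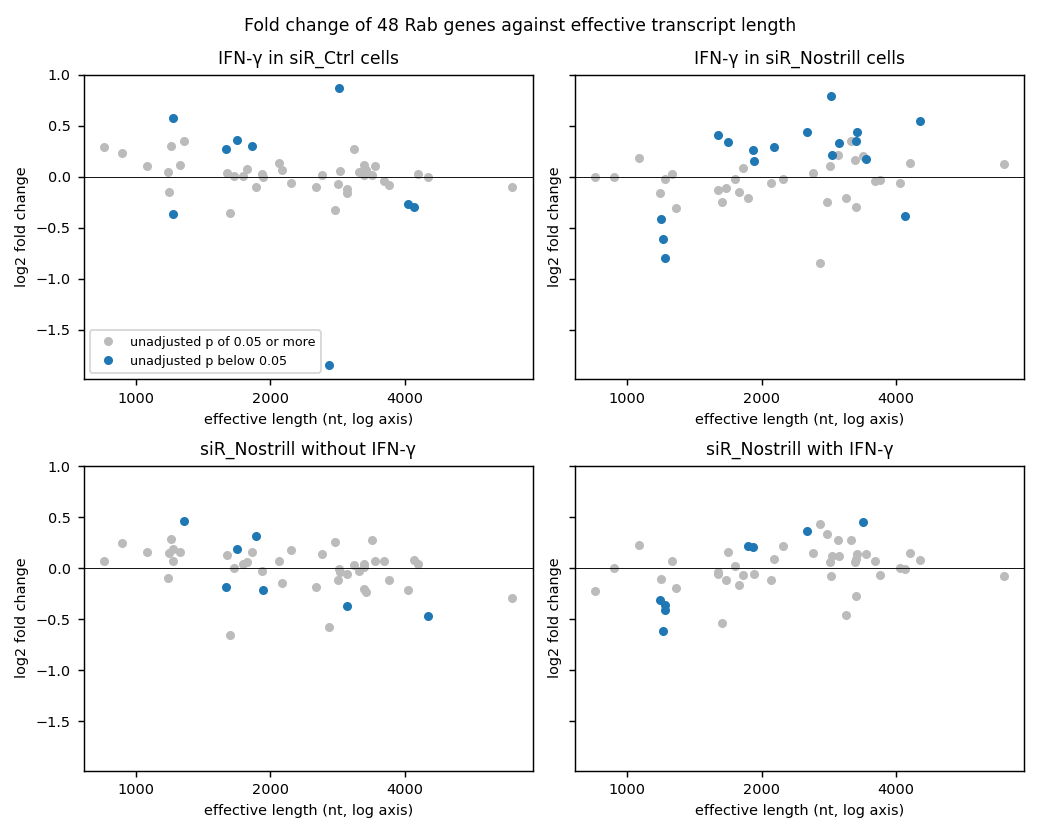
Log2 fold change of the 48 Rab genes against effective transcript length (log axis) in the 4 comparisons, with blue points for an unadjusted p below 0.05. Short genes lie lower in siR_Nostrill + IFN-γ (right panels) and higher in siR_Nostrill without IFN-γ (lower left).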

How the data were processed

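Gene-level tables of the 12 libraries were used as deposited. The methods name oligo(dT) enrichment, paired-end sequencing, SOAPnuke, HISAT2 and Bowtie2 on GRCm38.p6, and what counted the reads is not stated in them. The authors deposited an estimated count for each gene, made by aligning and counting reads and not always whole, and beside it FPKM and TPM. The TPM columns were used only for the summed Rab level of each library. The methods speak of RPKM where the deposited columns say FPKM. Library totals ran from 17824306 to 19093204 counts and set the precision of low genes.

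Rab genes were taken by symbol, and they, the roles and the list of regulators and effectors were chosen with earlier results of these data known. Expected counts were rounded to whole numbers, filtered (filterByExpr, 11900 genes kept), scaled by TMM and fitted over all 4 groups with edgeR 4.0.16 (quasi-likelihood, two-sided, Benjamini-Hochberg over all genes tested, threshold 0.05) in R 4.3.3. Fitted fold changes use a prior count of 0.125. The procedure was tested on simulated data. DESeq2 1.42.0 and limma 3.58.1 on log2(FPKM + 1) or log2(FPKM + 0.1), with genes of a mean of at least 0.5 FPKM, served as alternatives, with the filter, the scaling, the samples fitted, a length correction (lowess, span 0.3), the replicate block and each library left out. Named were all Rab genes called, Rab24 and Rab34, the 5 smallest p-values per comparison and, by level, the 10 highest and close paralogs. Fold changes were printed and followed through the alternatives for Rab genes with an unadjusted p below 0.05 in a comparison and for Rab24 and Rab34. Coordinates and promoter windows are from RefSeq on GRCm38.p6, and exons and 3′ untranslated regions from GENCODE vM21. The files' authors' comparisons were not used. Replicate libraries of a group differed beyond counting noise, with a chi-square per gene of 6.72 to 101 over pairs.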

Additional observations from a re-analysis of the deposited data

How the results depend on the processing

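Counts of Rab genes called moved with the test. For IFN-γ in siR_Ctrl cells the count of 3 became 7 with DESeq2, 0 with the compared groups alone, 6 with the length trend removed and 9 at an unadjusted p below 0.05. It was 1 with genes of a mean of at least 5 CPM, where Rab30 and Rab15 fell below the minimum and were not tested. Leaving out a library gave 2 to 3, with 4.07% to 4.90% of all genes called. For IFN-γ in siR_Nostrill cells the count of 5 became 10 with DESeq2, 10 with the compared groups alone, 8 with the replicate block, 15 with the length trend removed and 17 at an unadjusted p below 0.05, and leaving out a library gave 3 to 8, with 4.08% to 9.47% of all genes called. For siR_Nostrill without IFN-γ the count of 0 became 1 with DESeq2, 3 with the length trend removed and 7 unadjusted, and with IFN-γ it became 5 with the length trend removed and 8 unadjusted, while leaving out a library kept 0 in each. The interaction gave 0 throughout and 7 unadjusted. The cause of the other moves was not tested. The share of all genes called moved too. For IFN-γ in siR_Ctrl cells it was 5.45%, then 6.33% with DESeq2, 5.15% with the 5 CPM minimum, 2.91% with the compared groups alone and 11.1% with the length trend removed. In siR_Nostrill cells it was 6.78%, then 10.5%, 7.14%, 17% and 19%, and 7.92% with the replicate block. For siR_Nostrill it was 0.218% without and 0.429% with IFN-γ, then 2.56% and 5.46% with DESeq2, 3.43% and 12.9% with the length trend removed, 0% and 0% with the compared groups alone, and 0% to 0.308% and 0% to 0.599% with a library left out.

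Whether the replicate numbers pair the samples could not be settled. Deviations of same-numbered libraries correlated between -0.495 and 0.725 over 18 pairs and those of other libraries between -0.812 and 0.769 over 36. These ranges overlap, and deviations within a group of 3 libraries are tied to each other, so no conclusion on pairing is drawn. With the number as a block, the calls over all genes were 644, 943, 18, 32 and 0 in place of 649, 807, 26, 51 and 0, and 4, 8, 0, 0 and 0 Rab genes passed.

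The fold changes followed were those of Rab genes with an unadjusted p below 0.05, with Rab24 and Rab34, 54 in all, so most were chosen by p and few would turn sign. Of their 1174 values under the alternatives, 1089 kept direction and side of the threshold, 51 passed where they had not, 25 no longer passed and 9 turned sign. All 9 were of Rab34. For IFN-γ in siR_Ctrl cells it read -0.0195 and -0.0196 with limma (pseudocounts 1 and 0.1; -0.0195 with all genes), -0.0569 with the length trend removed, and -0.0662 to 0.1496 with a library left out. With the length trend removed it read 0.0242 for IFN-γ in siR_Nostrill cells and 0.0811 for the interaction. For siR_Nostrill without IFN-γ it read -0.2085 to 0.0026 with a library left out, the last without siR_Ctrl replicate 2.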
